A study of Mus musculus with 2 samples.

Results

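Organic ion and drug transporters are the membrane proteins that carry bile constituents, hormones, metabolites and medicines into and out of cells. The set was formed by name: every protein-coding gene of the GENCODE M1 annotation whose symbol starts with Slco, Slc22a, Slc47a, Abcb or Abcc, except Abcb4 and Abcb11. This gave 60 of 22380 genes, made up of 15 Slco, 25 Slc22a, 2 Slc47a, 8 Abcb and 10 Abcc genes. A GATA4 occupied site (OS) was counted at a gene when its midpoint lay in the gene body or within 10 kb of it.

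GATA4 was mapped by chromatin immunoprecipitation and sequencing (ChIP-seq) in whole livers of C57BL/6 x Sv129 mice. In this method an antibody pulls down a protein with the DNA it holds. The sample records give an age of 2 to 3 months, and the paper's methods give a range that starts and ends slightly later. The antibody was GATA4 C-20, and liver DNA that had not been precipitated was the input; no genotype or treatment was compared. The files hold 1 ChIP sample, with biological replicates merged by the peak calling, and the input enters through the peak calls alone. Whole liver contains hepatocytes, endothelial cells, bile duct cells and macrophages, so a site held in few cells and a site held weakly in many cannot be told apart, and no site can be given to a cell type. The peak lists name 4811 sites by SPP, 5867 by MACS2 and 4409 common to both. All carry the display score of 1000, the depth behind a site is unknown, and no replicate error can be given. The number of a site is its place in its list, and the files do not say what the order follows. For comparing replicates, the paper's methods ranked SPP peaks on signal value and MACS2 peaks on p-value. Whether the list numbers keep that ranking is not stated.

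The hepatocyte takes up organic anions and cations from sinusoidal blood through OATP proteins (Slco genes) and through OCT and OAT proteins (Slc22a genes). It exports them, often after conjugation, into bile across the canalicular membrane by P-glycoprotein (Abcb1a, Abcb1b), MRP2 (Abcc2) and MATE1 (Slc47a1), or back to blood by MRP3, MRP4 and MRP6 (Abcc3, Abcc4, Abcc6). Other members work mainly in kidney, brain or testis, in mitochondria and lysosomes (several Abcb genes), or as subunits of potassium channels (Abcc8, Abcc9). GATA4 is a zinc finger factor that binds WGATAR, that is AGATAA or AGATAG or TGATAA or TGATAG, on either strand.

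Of the 60 genes, 7 held a common OS (11.7%, Wilson 95% interval 5.77 to 22.2). Together these held 10 OS, and Slco1a4, Slco2a1, Slco2b1, Abcc3, Abcc4 and Abcc6, with 9 of the 10, are described here. Among the 22320 other protein-coding genes the share was 13.7%, which lies inside that interval, so the transporter share was near the background. Neither share takes account of gene length, which is given further on. The Abcb and Slc47a genes had none. The genes were also grouped by known role in the liver, with roles chosen when earlier results of these data were known. This grouping is a description with no test and supports nothing on its own. Of 13 genes that a table of known roles placed at the hepatocyte membrane, 6 held a common OS. Of the 47 remaining genes 1 did, the prostaglandin transporter gene Slco2a1, known from endothelium. The 47 include 11 genes without a role in that table and 6 of broad role, so some may also act in hepatocytes.

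The sequences of 5 of these OS are shown because they hold the motif matches described further on, and because they cover sinusoidal uptake, basolateral export and the endothelial transporter. They are the plus strand of mm9 (NCBI Build 37) from the first to the last base of the OS, with WGATAR in capitals (a match on the minus strand appears as its reverse complement).

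Slco1a4, chr6:141806353-141806535: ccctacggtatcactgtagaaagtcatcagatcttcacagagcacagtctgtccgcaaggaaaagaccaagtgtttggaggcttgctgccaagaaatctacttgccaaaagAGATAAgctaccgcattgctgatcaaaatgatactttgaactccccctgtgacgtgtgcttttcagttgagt

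Slco2b1, chr7:106797223-106797369: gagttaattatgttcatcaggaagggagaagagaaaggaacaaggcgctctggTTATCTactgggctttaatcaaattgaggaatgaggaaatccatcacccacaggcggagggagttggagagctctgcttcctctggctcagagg

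Abcc3, chr11:94226867-94226977: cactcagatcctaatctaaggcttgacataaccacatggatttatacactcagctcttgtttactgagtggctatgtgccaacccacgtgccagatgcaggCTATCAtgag

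Abcc4, chr14:119066870-119066963: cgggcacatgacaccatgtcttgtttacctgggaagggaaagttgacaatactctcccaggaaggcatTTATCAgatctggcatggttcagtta

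Slco2a1, chr9:102939432-102939571: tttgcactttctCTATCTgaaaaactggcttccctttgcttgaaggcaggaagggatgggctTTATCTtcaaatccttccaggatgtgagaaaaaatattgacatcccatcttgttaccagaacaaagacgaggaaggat

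Of the genes of sinusoidal uptake, Slco1a4 held 1 OS and Slco2b1 held 2. Slco1a4 encodes an OATP that takes up digoxin and other anions in liver and at the blood-brain barrier (chromosome 6, 141753961 to 141804720, minus strand). Its OS was number 539 in the common list and 1929 in the MACS2 list. With its midpoint 1752 bp upstream of the TSS of the longest transcript, it came closest to a TSS among the 10. The Slco1 locus, with 6 genes over 818.6 kb including 10 kb on either side, held only 1 more common OS, number 2324, from 141911047 to 141911166. That one lay 15.6 kb upstream of Slco1a1, a carrier of steroid sulfates and bile acids, outside the 10 kb limit. Slco1b2, the mouse counterpart of OATP1B1 and OATP1B3, was 171.3 kb from its nearest common OS and had no MACS2 peak in reach.

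Slco2b1 encodes a carrier of steroid sulfates (chromosome 7, 106806314 to 106859850, minus strand). It held an OS at 106850750 to 106850978 in intron 1, number 662 of the common list and 449 of the MACS2 list. Another OS, number 1826, spanned 106797223 to 106797369 and lay 9018 bp beyond the 3′ end of the gene. Taking the longest transcript of each protein-coding gene, the TSS nearest to this downstream OS was that of Gm4980, 22612 bp away. A shorter protein-coding transcript of Slco2b1 starts closer to it, at 16146 bp. For the other 9 OS the nearest TSS by longest transcripts was that of the transporter gene itself. Slc22a7, the gene of OAT2, had its nearest common OS 24.0 kb away, and that OS was closest to the TSS of Gm5093.

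All 3 genes that the table of known roles placed at basolateral export held an OS, 4 in all, beside 13.7% of the other protein-coding genes. Counted over all 8 MRP genes of the set, 3 held one. That table was chosen with earlier results known, so both counts are a description only. Abcc3 encodes MRP3, which returns glucuronides to blood (chromosome 11, 94204612 to 94254311, minus strand), and its OS, number 2702, lay in intron 11 of the longest transcript. Abcc6 encodes MRP6, whose loss causes pseudoxanthoma elasticum (chromosome 7, 53231750 to 53285672, minus strand). Its OS, number 2678, spanned 53248036 to 53248163 in intron 19. Both lay in the inner part of their gene, 27368 bp and 37573 bp from the TSS of the longest transcript. The nearest TSS of any annotated transcript of the gene was closer, at 2315 bp for Abcc3 and 8340 bp for Abcc6. Those transcripts are annotated as a processed transcript and a retained intron.

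Abcc4 encodes MRP4, an exporter of cyclic nucleotides and bile acids (chromosome 14, 118881914 to 119105441, minus strand). It was the longest of the 7 genes at 223.5 kb and held 2 OS 115752 bp apart. Number 1870 lay in intron 3, and number 2129, from 118951081 to 118951247, in intron 19, 154277 bp from the TSS. A further common OS, number 2807, was found 12.5 kb upstream of the gene, just outside the limit. It held no WGATAR.

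The canalicular exporters had a common OS at 0 of 4 genes (Abcb1a, Abcb1b, Abcc2 and Slc47a1). With 13.7% of the other protein-coding genes holding one, 4 genes are too few to tell this count from the background. The nearest common OS was 76.1 kb from Slc47a1, 102.5 kb from Abcc2, 174.7 kb from Abcb1b and 292.5 kb from Abcb1a. Abcb1b had a peak in the MACS2 list alone, on chromosome 5 from 8863408 to 8864108 in intron 26 of 27. It was number 5625 of 5867, met no SPP peak and held 4 WGATAR in its 701 bp. With the MACS2 list, 8 transporter genes (13.3%) had a peak, beside 17.4% of the other genes.

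**Figure D1:**
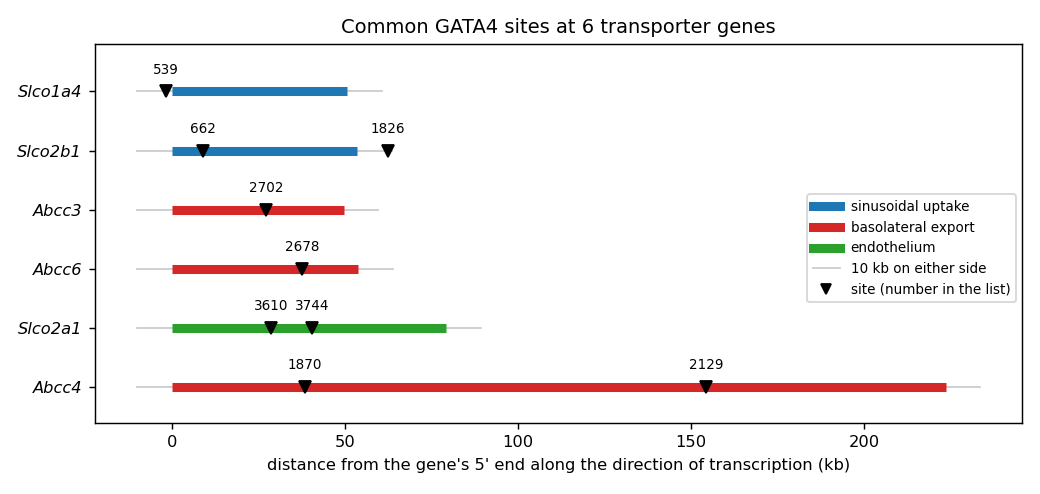
Each bar is 1 of 6 genes with a common OS, drawn from its 5′ end along the direction of transcription in kb, with thin lines for 10 kb on either side, colours for the role, and triangles for the OS with their list numbers. Of the 9 triangles, 7 lie within a gene, 1 lies just before Slco1a4 and 1 lies 9018 bp behind Slco2b1.

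Slco2a1 encodes the prostaglandin transporter (chromosome 9, 102910817 to 102990179, plus strand). It held 2 common OS, number 3610 in intron 1 and number 3744, from 102951209 to 102951528, in intron 2, with 11867 bp between their midpoints. This was the closest spacing among the OS of the set. Another common OS, number 4309, lay 15.5 kb upstream. These 3 sites all stood late in the common list, but the intron 1 OS was number 1350 in the MACS2 list, where it fell under a peak of 1169 bp, the widest MACS2 peak over any transporter OS.

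The list numbers of the 10 OS had a median of 1999.5, beside 2205 for all common OS. The OS of Slco1a4 and Slco2b1 stood at 539 to 1826, those of the basolateral export genes at 1870 to 2702, and those of Slco2a1 at 3610 and 3744. These are 9 OS of 6 genes, too few to set the roles apart, and whether the order keeps the ranking named above is unknown. In the MACS2 list the same roles overlapped, with Slco1a4 and Slco2b1 at 449 to 1929, the basolateral export genes at 1747 to 3393, and Slco2a1 at 1350 and 3859. The median width was 157 bp, with extremes of 94 bp (Abcc4) and 320 bp (Slco2a1), against 190 bp over the whole common list. Their GC content was 41.4 to 53.3% with a median of 46.4%, against 49.4%.

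**Figure D2:**
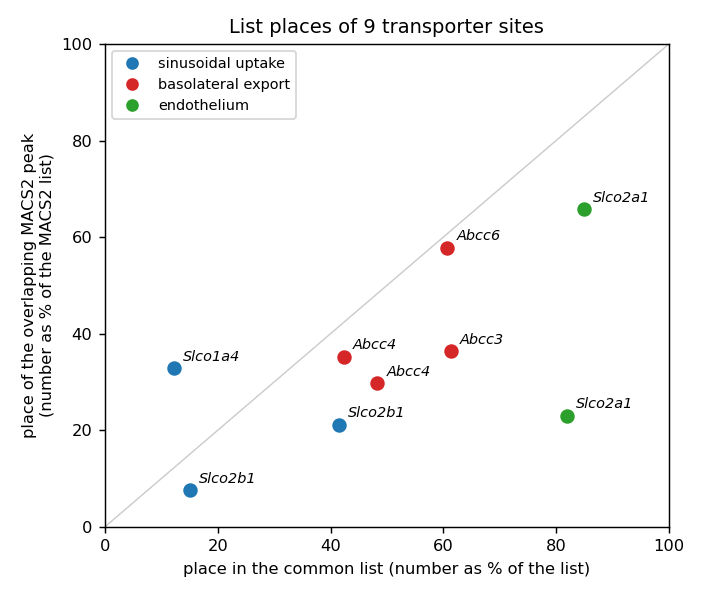
Each point is 1 of 9 OS, with its number as a percent of the common list on the x axis and that of the overlapping MACS2 peak on the y axis; the line marks equal places. Slco1a4 stands at 12.2% and 32.9%, and the OS of Slco2a1 at 81.9% of the common list stands at 23.0% of the MACS2 list, the largest gap between the lists.

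None of the 10 OS lay within 1000 bp of a TSS of its gene or in an exon, and for 0 of 10 the Wilson 95% interval is 0 to 27.8%. Introns held 8 of them, of which 2 were in intron 1 of the longest transcript, and 1 each lay upstream and downstream. Of 4101 pairs of an OS and another protein-coding gene, 45.1% lay in an intron and 19.4% within 1000 bp of a TSS. Transporter genes were longer than the other genes, with a median of 53.5 kb against 15.3 kb, and the part of length in the intron count was not tested. Within the set, the 7 genes with an OS and the 53 without had like lengths, with medians of 53.5 and 53.4 kb. Among the other protein-coding genes, those with an OS were longer, with medians of 32.8 kb against 13.6 kb. Counted per length, the windows of the 60 genes covered 5.15 Mb and held 1.94 OS per Mb (exact Poisson 95% interval 0.931 to 3.57), and those of the other genes 2.54 per Mb. The families ranged from 3.62 per Mb for Abcc (4 OS) and 3.20 for Slco (5 OS) to 0 for Abcb and Slc47a. The windows of Abcb and Slc47a covered only 0.638 and 0.0967 Mb. These counts and windows are too small to set the families apart.

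WGATAR was found in 10 of the 10 transporter OS (Wilson 95% interval 72.2 to 100%) and in 82.9% of all common OS. When each OS was shifted by 5000 bp to higher coordinates, 0 of the 10 shifted transporter OS and 31.9% of all shifted OS held it. A single match was present in 8 of them and 2 matches in both OS of Slco2a1, with 44 and 37 bases between the matches. Of the 12 matches, 7 were AGATAA, 3 TGATAA, 1 AGATAG and 1 TGATAG. Over all common OS, AGATAA made up 44.6% of 5734 matches. These intervals cover counting error only, and the sites of 1 gene are not independent.

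The nearest WGATAR lay at most 48.5 bp from the midpoint of the OS, with a median of 23.5 bp, against 17.5 bp over all common OS with a match. In the intron 1 OS of Slco2a1, AGATAA sat 4.5 bp from the midpoint, from 102939494 to 102939499. In Abcc3 the motif, TGATAG, was at the edge, 48.5 bp from the midpoint of an OS only 111 bp wide. The central 100 bp held WGATAR in 9 of 10 OS.

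**Figure D3:**
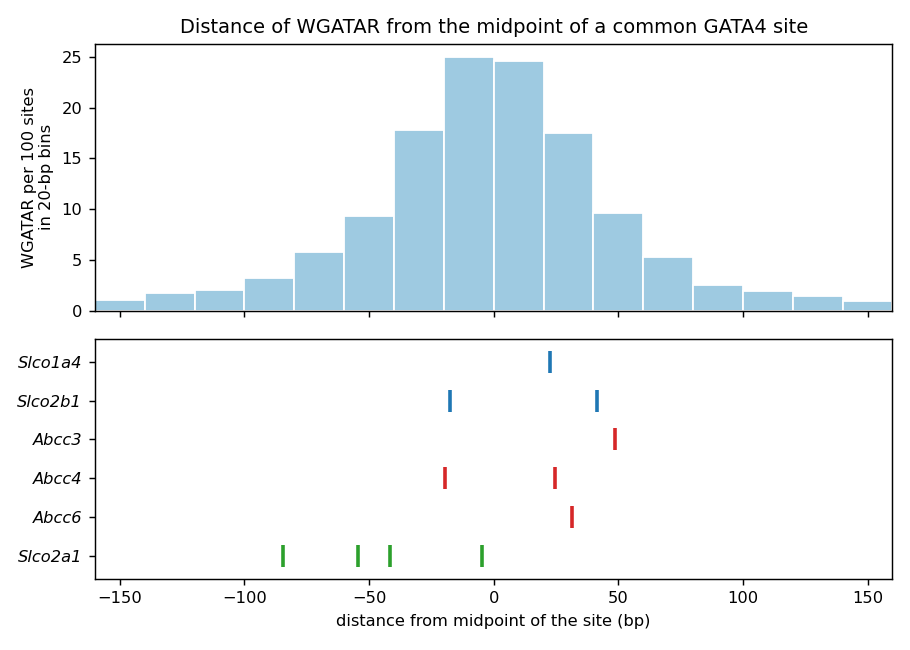
The upper panel gives WGATAR matches per 100 common OS in 20-bp bins by distance from the midpoint in bp, and the lower panel 11 matches in OS of 6 transporter genes as ticks, coloured by role. The ticks lie between 84.5 bp to the left and 48.5 bp to the right of the midpoint.

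The motif itself was common in these genes. The windows of the 60 genes held 12691 WGATAR, or 2.46 per kb, beside 2.39 per kb for the other genes, and 12 of them (0.0946%) lay in a common OS, beside 0.136%. In the window of Slco2a1, 4 of 216 WGATAR were in an OS, and in that of Abcc4 2 of 475.

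Words of other liver factors were searched on both strands in the same way. The FOXA words TGTTTAC and TGTTTGC and TATTTAC and TATTTGC were found in 3 of 10 OS (Wilson 95% interval 10.8 to 60.3%), compared with 16.7% of all common OS and 12.6% of the windows beside them. Those of Abcc3 and Abcc4 (number 1870) were among them, both with TGTTTAC, which stood 37 and 40 bases from WGATAR. Both are among the sequences printed above. The C/EBP word TTGCNNAA, present in 12.7% of all common OS and 8.62% of the windows beside them, occurred in the Slco1a4 OS as TTGCCAAA, with 2 bases between it and AGATAA. The HNF1 word GTTAATNAT was present in the downstream OS of Slco2b1 and in 1.07% of all common OS. The HNF4 words CAAAGTCCA and CAAAGTTCA were in 0 of the 10 OS and in 2.11% of all. A match is a description of letters and not of binding by these factors.

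In the RefSeq table of promoters (build GRCm38.p6, short stretches around each start), 48 of the 60 genes had an entry. WGATAR was present in 19 of their 55 promoters (34.5%), beside 29.8% of all 32851. Those of Abcb1a, Abcc2, Slco1a1 and Slco1b2 were among them, genes with no common OS in reach, and of the 7 genes with an OS, those of Abcc4 and Slco2a1.

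Among the other members, 53 in all without a common OS, the nearest OS lay from 11.0 kb (Slc22a12, the urate transporter gene of kidney) to 4385.6 kb (Slco6d1) away. Just inside the 10 kb limit was the downstream OS of Slco2b1, and just outside it were those of Slc22a12 at 11.0 kb and Abcc12 at 12.6 kb. With a reach of 50 kb, 21 genes (35.0%) had a common OS, and so did 27.7% of the other protein-coding genes. Slc22a15, whose OS number 1067 with 4 WGATAR lay 16.1 kb upstream, and Slc22a5, the carnitine transporter gene OCTN2, at 17.2 kb, were among them. The 5 Abcb genes of mitochondria and other organelles had their nearest OS 27.96 to 570.7 kb away, and the OS nearest to Abcb8, which encodes a mitochondrial transporter, was closest to the TSS of Nos3.

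**Figure D4:**
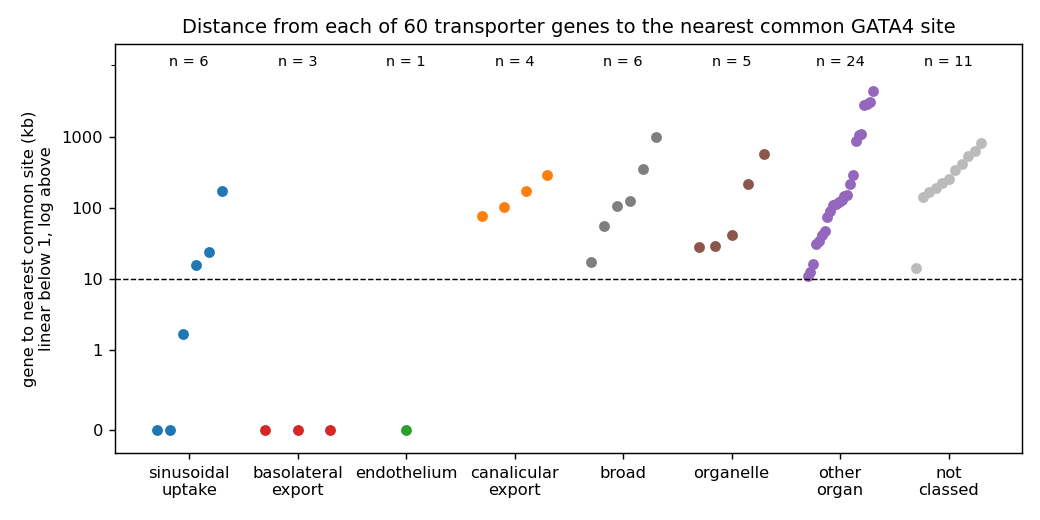
Each point is 1 of the 60 genes, grouped by known role, at its distance in kb from the nearest common OS (0 inside the gene; linear below 1 and logarithmic above). The 3 basolateral export genes and Slco2a1 stand at 0, the 4 canalicular genes between 76.1 and 292.5 kb, and the dashed line marks 10 kb. The median of the other protein-coding genes, which are not drawn, was 157.4 kb.

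Of the neighbouring members measured as loci, 4 groups had no peak in any of the 3 lists. The widest were the Slc22a19 to Slc22a30 locus of organic anion transporters on chromosome 19, with 6 genes over 752.1 kb, measured in the same way, and the stretch from Slco4c1 to Slco6d1 on chromosome 1, with 4 genes over 1718.2 kb. The others were Slc22a8 with Slc22a6, OAT genes of kidney, and Slc47a1 with Slc47a2. Such distances were also common outside the set. Of the 60 transporter genes, 12 lay over 500 kb from a common OS, beside 24.1% of the other protein-coding genes. How often a stretch as long as these loci lacks a peak elsewhere was not tested. Only uniquely placed reads were used for the peaks, so the uniqueness of sequence was measured by exact matches. A word with a near but inexact copy elsewhere still counted as found once, so usable sequence may be lower. In the chromosome 19 locus, 58.6% (Slc22a30) to 79.0% (Slc22a26) of 48-base words occurred once in the genome, and in the chromosome 1 locus 84.0 to 93.6%. It was 88.2% for Slc22a6, 98.0% for Slc22a8 and Slc47a1, and 98.4% for Slc47a2. The share was 91.2% for the other protein-coding genes. The 7 genes with an OS had 93.4 to 98.8%, and the 53 without 58.6 to 99.6% with a median of 92.4%. Abcc2 (96.6%), Slc22a8, Slc47a1 and Slc47a2 had no OS at sequence as unique as that of the genes with one, while Abcb1a had 79.6%. The part of uniqueness in the counts was not tested.

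**Figure D5:**
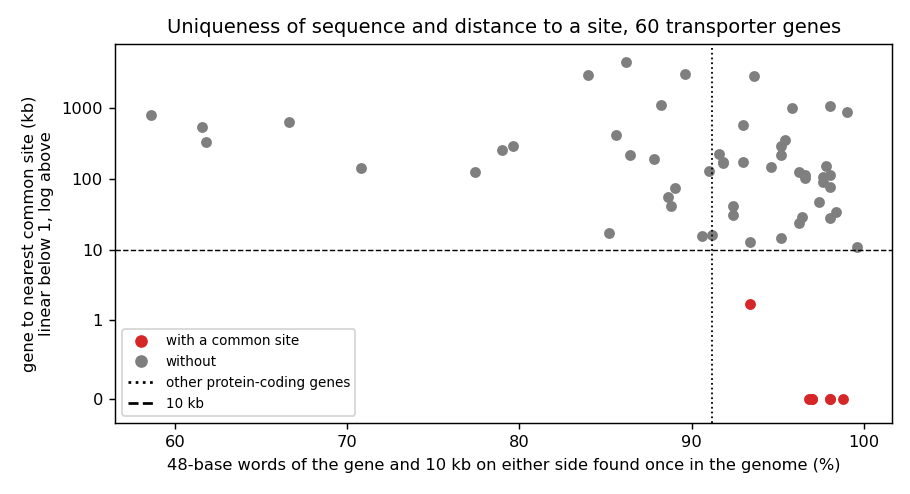
Each point is 1 of the 60 genes, with the percent of its 48-base words found once in the genome on the x axis and its distance in kb from the nearest common OS on the y axis (linear below 1, logarithmic above). The 7 genes with an OS (red) lie at 93.4% or more, and 8 genes lie below 80%.

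Lists of related genes were set beside the 60. Of 18 membrane transporters of liver outside the name rule, 5 had a common OS, beside 13.7% of all protein-coding genes outside the 60: Slc2a2, the glucose carrier GLUT2, with 3, Abca1 and Atp8b1 with 2 each, and Abcg5 and Abcg8, which share OS number 87 and encode the canalicular exporter of sterols. The last pair was named after its values were seen. The bile acid uptake carrier Slc10a1, the canalicular exporters Abcb4, Abcb11 and Abcg2, and the basolateral bile acid exporter genes Osta and Ostb had none. Of 11 receptors and factors known to act on drug transporter genes, 8 had a common OS, beside the same 13.7%, among them Rxra with 3 and Nfe2l2 and Cebpa with 2 each. Every one of these OS held WGATAR.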

How the data were processed

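GATA4 ChIP-seq and input libraries of whole liver were sequenced from 1 labelled ChIP sample and 1 labelled input sample. By the paper's methods and the submitters' processing notes, the authors aligned reads with Bowtie 0.12.7 to mm9, discarded reads with more than 1 placement, ran a modified SPP and MACS2 2.0.10 under the IDR protocol for replicates and intersected the lists with bedtools 2.16.1. The score that the authors deposited is 1000 for every peak, so positions were used. The reads were not analysed here.

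Genes were those of GENCODE M1 on NCBI Build 37, the build of the files, counted by gene identifier. Coordinates were made 1-based. The longest protein-coding transcript gave intron numbers and the TSS unless another is named. Places in a gene were read from all transcripts, in the order near a TSS, exon, first intron, later intron. Motifs were exact matches on both strands. Uniqueness was read from exact matches of 500 words of 48 bases for each gene and 30000 over the other genes. No test was made, since sites are not replicates and there is 1 sample. Wilson and Poisson intervals at 95% cover counting error only. Every gene with a common OS was named, except that 1 item is not reported here. The members, the gene lists and the table of roles were chosen with earlier results of these data known, and support nothing on their own; 11 genes had no role in that table. Python 3.11.15, numpy 2.4.6, scipy 1.17.1, pysam 0.24.0, numba 0.67.0 and matplotlib 3.10.9 were used, and the functions were tested on simulated data.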

Additional observations from a re-analysis of the deposited data

How the results depend on the processing

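The 7 of 60 transporter genes became 21 with a reach of 50 kb, beside 27.7% of the other protein-coding genes. They became 12 with each OS given to the nearest TSS within 50 kb. With numbers 1 to 2204 of the common list they were 4, beside 7.22%. The gene body alone gave 6, beside 7.67%, and a reach of 5 kb gave 7, beside 11.3%. The transporter share was above that of the other genes with the gene body alone, 5 kb and 50 kb. It was below theirs under the other settings where both shares were taken. The 10 OS became 27 with a reach of 50 kb and 6 with those numbers. Under the other settings (gene body alone, 5 kb, any overlap, the SPP or MACS2 list, longest transcripts, shared OS counted once), the genes numbered 6 to 8 and the OS 8 to 11, and 15 OS had a transporter TSS as the nearest within 50 kb. The share of OS with WGATAR was 90 to 100%, and 7 or 8 OS lay in introns. These settings mostly scored the same OS again, and wider windows hold more WGATAR by length alone. The narrow range of the share is therefore not a separate check. OS per Mb were below those of the other genes under every setting run except the reach of 50 kb, with 3.01 against 2.33. No paired analysis was possible because the lists cover both replicates together and no test was made. Without read counts, an OS just under the thresholds of the peak callers cannot be told from no binding.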
